A study of Saccharomyces cerevisiae with 2 samples.

Results

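The genes described here encode MSG5 and 9 other protein phosphatases of budding yeast, Saccharomyces cerevisiae, that are grouped with the regulators of mitogen-activated protein kinases (MAP kinases). They were chosen by systematic gene name and are 10 of the 5676 genes on the array. The set holds the dual-specificity phosphatase genes MSG5 (YNL053W), SDP1 (YIL113W), PPS1 (YBR276C) and YVH1 (YIR026C), the tyrosine phosphatase genes PTP1 (YDL230W), PTP2 (YOR208W) and PTP3 (YER075C), and the genes PTC1 (YDL006W), PTC2 (YER089C) and PTC3 (YBL056W) for type 2C (PP2C) serine/threonine phosphatases. PTP1, PPS1 and YVH1 carry the label by family more than by an established role at a MAP kinase.

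A MAP kinase is switched on when a kinase above it phosphorylates a threonine and a nearby tyrosine in its activation loop, and it is switched off when either phosphate is removed. Dual-specificity enzymes remove both, tyrosine phosphatases remove the one on tyrosine, and PP2C enzymes the one on threonine. In yeast these enzymes act on Fus3 and Kss1 of the mating and filamentation pathways, on Slt2 of the cell wall integrity pathway and on Hog1 of the osmotic stress pathway. Several of the phosphatase genes are themselves known as outputs of the pathways they restrain, which makes their transcript level part of a feedback loop.

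Total RNA was compared on two-colour arrays, where RNAs labelled with Cy3 and Cy5 compete for the same spots. In the first of 2 comparisons, the wild-type strain BY4741 was set against a strain with MSG5 deleted. In the second, the deletion strain given alpha factor, the pheromone that a cells sense, was set against the deletion strain not given it, so both RNAs lacked MSG5. BY4741 is a haploid of mating type a that is also deleted for HIS3, LEU2, MET17 and URA3, and the labels name it for the wild-type RNA only. Cultures grew in rich medium at 24 °C and 200 rpm from an optical density of 0.2. The first pair grew for 2.5 h and was collected 2 h later. The second pair grew for 4 h and was collected after 90 min, with alpha factor given in the labels as 50 mM. The number of clones behind the deletion strain is not given in the sources used here.

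The authors condensed 4 arrays per comparison, made from 2 biological samples with the dyes swapped, into a single log ratio per feature. There is therefore no spread between replicates and no difference below was tested. How few arrays there were limits the precision. Values are given as log2 ratios, a base that the files bear out for the first comparison and that is assumed for the second. They are deletion over wild type in the first comparison and, likely, treated over untreated in the second. The second direction rests on a shared channel layout, and 22 of 27 measured pheromone response genes lay above 0. The nearest to a measure of error in the files is the spread between features of the same gene. Its pooled SD was 0.22 for the deletion (25 genes) and 0.26 for alpha factor (24 genes). Features of a gene share the same RNAs and arrays, so this SD leaves out variation between cultures. Some features were put under a gene by an older name and may probe another stretch of it. They need not be repeat spots, so the SD is only a rough guide to error. All 10 phosphatase genes had 1 feature each and a value in both comparisons, whereas 77.1% of all genes had both values. Over all genes the median was -0.07 for the deletion and -0.05 for alpha factor. Of the a-cell markers, 6 of 7 were above 0 in each comparison. All 7 are also among the pheromone response genes, so this count is not separate from theirs. Of the alpha-cell markers, MF(ALPHA)2 and SAG1, the 2 of 4 that had values, were above 0 in both, with SAG1 at 1.17 in the deletion strain over wild type. These values are ratios and do not show whether either RNA lacked a marker.

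In the comparison of the deletion with wild type, MSG5 and PTP2 lay apart from the other phosphatase genes, in opposite directions. MSG5 had a log2 ratio of -2.51, a signal 5.71-fold lower in the deletion strain and the lowest ratio of 4969 measured genes. Since that strain lacks the gene, the fold does not measure a remaining transcript level. PTP2, for a tyrosine phosphatase that acts mainly on nuclear Hog1 and also on Slt2 and Fus3, had a log2 ratio of 0.90 and was 1.86-fold higher in the deletion strain. In all, 51 genes, PTP2 included, were as high or higher. The other 8 phosphatase genes lay between -0.20 and 0.20.

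MSG5 was the only one of the 10 genes to be at least 1.5-fold lower, where 3.08% of all genes were. It was also at least 2-fold lower, as were 0.262% of all genes. PTP2 was the only one at least 1.5-fold higher, where 2.84% of all genes were, and none was at least 2-fold higher, where 0.785% were. The MSG5 value checks the labels, since the gene is deleted in that strain. MSG5 and PTP2 were also the only 2 genes of the set farther from 0 than 0.43, which is 2 SD of features of the same gene and was passed by 11.6% of all genes.

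The plot of log2 ratios by gene shows the remaining members inside the range of most genes on the array.

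**Figure D1:**
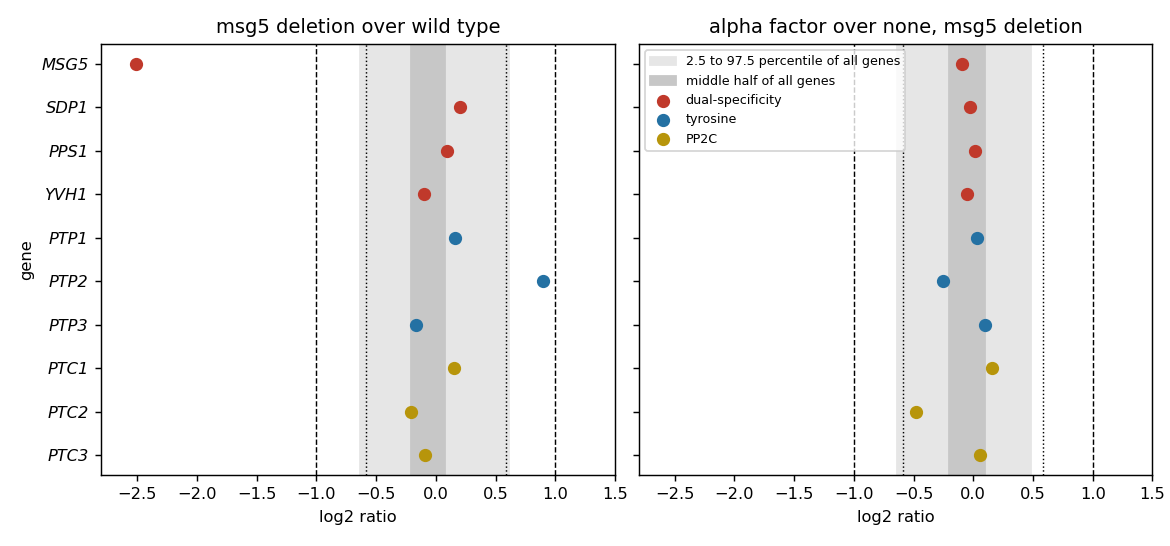
Log2 ratios (x axes) of the 10 phosphatase genes (y axis) for the msg5 deletion over wild type (left) and for alpha factor over none in the deletion (right), 1 condensed value per point, with no error bars since the files give no replicates. Points are coloured by enzyme class, light grey spans all measured genes but the lowest and the highest 2.5%, dark grey runs from their lower to their upper quartile, dotted lines mark 1.5-fold and dashed lines 2-fold. MSG5 at -2.51 and PTP2 at 0.90 lie outside the light band on the left, and no gene does on the right.

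Among the dual-specificity genes, SDP1 encodes the closest relative of Msg5, a phosphatase selective for Slt2 and known from heat stress. SDP1 had a log2 ratio of 0.20, above 87.9% of all genes but within 2 SD of features of the same gene. PPS1, whose product has been linked to DNA synthesis, was at 0.09. YVH1, whose product is known for assembly of the large ribosomal subunit and for sporulation, was at -0.10. None of these 3 dual-specificity genes reached 1.5-fold in the strain without MSG5.

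The tyrosine phosphatase genes differed from one another more than the PP2C genes did. PTP3, whose product acts mainly on Fus3 and resides in the cytoplasm, had a log2 ratio of -0.17, which put it 1.07 below its relative PTP2 on the log2 scale. PTP1, for a tyrosine phosphatase with no established MAP kinase among its main substrates, was at 0.16. PTP1 and PTP3 both stayed within 2 SD of features of the same gene.

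The PP2C genes spanned 0.15 to -0.20. PTC1, for the enzyme that the adaptor Nbp2 brings to the Hog1 pathway, was at 0.15, and NBP2 was at 0.07. PTC2, which also acts on the checkpoint kinase Rad53, was at -0.20. Its paralogue PTC3 was at -0.09, a difference of -0.11 within the pair that is smaller than the SD between features. Without MSG5, the median of the 9 other genes was 0.09, beside -0.07 for all genes. Of these 9 genes, 5 lay above the median of all genes.

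With alpha factor in the deletion strain, all 10 phosphatase genes stayed within 1.5-fold, where 4.61% of all genes passed 1.5-fold in either direction. This holds for base 2, since PTC2 would pass 1.5-fold if the values were natural logarithms, and PTC2 and PTP2 if they were base 10 logarithms. The share of all genes likewise holds for base 2 and would rise with them. PTC2 was farthest from 0 at -0.48, which is 1.39-fold lower with alpha factor, and 6.05% of all genes were as low or lower. PTP2 came next at -0.25, below which 19.4% of genes lay. The highest was PTC1 at 0.16, followed by PTP3 at 0.10 and PTC3 at 0.06. None of the 10 was farther from 0 than 0.51, or 2 SD of features of the same gene, which 7.14% of all genes passed.

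MSG5 had a value of -0.09 with alpha factor. It measures no MSG5 transcript, because neither culture carried the gene, and it lies between the quartiles of all genes, as do 5 other members. SDP1 was at -0.03, PTP1 at 0.04, PPS1 at 0.02 and YVH1 at -0.05. Without MSG5 the median was 0.02, beside -0.05 for all genes, with 6 of 9 genes above the latter. In wild-type a cells MSG5 is itself known as a pheromone-induced gene, and these arrays do not measure that response.

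With alpha factor the values within the PTC2 and PTC3 pair and the PTP2 and PTP3 pair lay apart, though each gene stayed within 2 SD of features of the same gene. A difference within a pair carries the spread of both genes, and whether these differences exceed it was not tested. PTC2 lay 0.54 below PTC3 on the log2 scale with alpha factor, and PTP2 lay 0.35 below PTP3. In value, PTP2 was thus above PTP3 in the deletion comparison and below it with alpha factor, the latter order with that same limit. Turning the sign of the alpha factor values, whose direction is only likely, would put PTP2 at 0.25 and PTC2 at 0.48 and so reverse both orders.

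The comparisons share the deletion strain, differ in culture time and are set side by side only as values. PTP2 was at 0.90 and -0.25, a difference of 1.15, and PTC2 at -0.20 and -0.48, a difference of 0.28. PTP3 was at -0.17 and 0.10, and PTC1 at 0.15 and 0.16, with differences of -0.27 and -0.01. The order of these differences rests on the direction of the alpha factor values. With their sign turned the differences would be 0.65 for PTP2, -0.68 for PTC2, -0.07 for PTP3 and 0.31 for PTC1. The plot of one comparison against the other shows PTP2 to the right of the main cloud and the remaining members, apart from MSG5, within it.

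**Figure D2:**
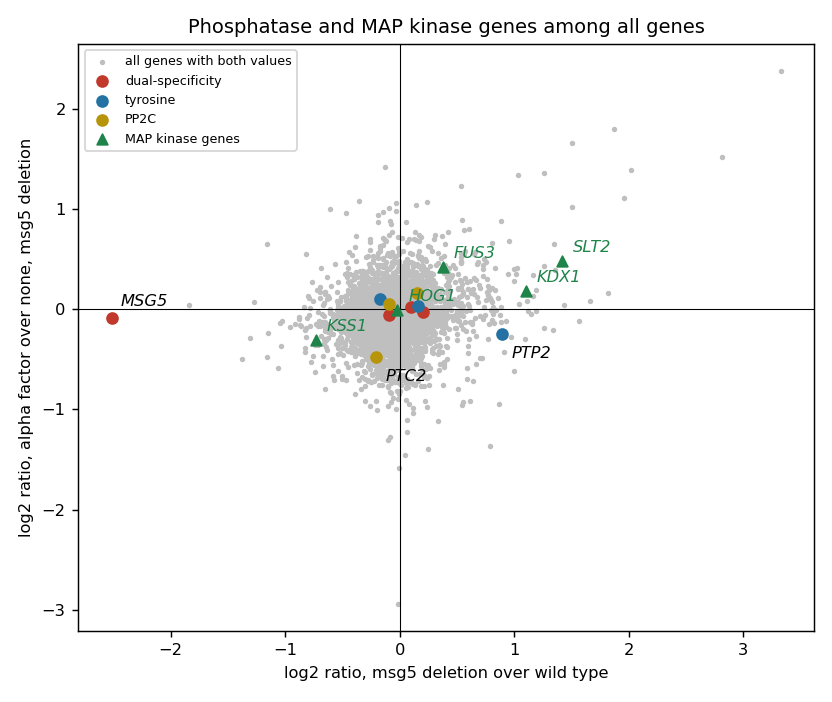
Log2 ratio for the msg5 deletion over wild type (x axis) against log2 ratio for alpha factor over none in the deletion (y axis), 1 point per gene for the 4378 genes with both values in grey. Phosphatase genes are circles coloured by enzyme class and MAP kinase genes are green triangles. MSG5 lies far left at -2.51, PTP2 is right at 0.90, and SLT2 and KDX1 are farther right at 1.42 and 1.10.

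The genes of the MAP kinase list, which holds KDX1 and SMK1 beside the substrates named above, showed no single pattern. SLT2, the MAP kinase gene of cell wall integrity, was at 1.42 without MSG5 and at 0.48 with alpha factor, the farthest from 0 of its list in both. KDX1, for a kinase related to Slt2, was at 1.10 and 0.18. FUS3, the mating MAP kinase gene, was at 0.38 and 0.42. KSS1, of filamentation, was at -0.73 and -0.31, and HOG1 at -0.02 and -0.01. SMK1, a MAP kinase gene of sporulation, had a value with alpha factor only, of -0.02.

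In the deletion comparison PTP2 was at 0.90, SLT2 at 1.42 and HOG1, which encodes another substrate of Ptp2, at -0.02. Why PTP2 was higher was not tested, and these ratios do not measure kinase activity. Cell wall integrity output genes had a median of 0.62 in the deletion comparison, and 14 of 22 were at least 1.5-fold higher, where 2.84% of all genes were. Its 6 genes past 2-fold were PRM5, the highest, SLT2, NCW2, SPI1, KDX1 and YPS3, the lowest of them at 1.10. PTP2, which is not in that list, had 8 of its genes above it and 14 below it. With alpha factor the list median was 0.16, with 1 gene, PRM5 at 1.02, at least 1.5-fold higher, as were 1.46% of all genes. YPS1, a yapsin protease gene at -0.95, was the only one at least 1.5-fold lower, as were 3.15% of all genes. After centring, or after subtraction of a running median by position in the table, 2 genes of the list were at least 1.5-fold higher with alpha factor. With alpha factor 18 of the 22 genes lay above PTP2 and 4 below it, which a turned sign would swap. The osmotic stress genes, outputs of a pathway that Ptp2 restrains, had medians of 0.08 for the deletion and -0.12 for alpha factor. These medians are over 12 and 11 of 15 genes, and STL1, CTT1 and SIP18 had no value in either comparison. The farthest from 0 of those measured were GCY1 at 0.72 for the deletion and GRE2 at -0.82 for alpha factor.

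The kinases and scaffolds above the MAP kinases lay near 0 in the deletion comparison, with a median of 0.01 over 11 of 15 genes and none past 1.5-fold, where 5.92% of all genes were. STE7, the MAP kinase kinase gene of mating, was farthest at -0.50. With alpha factor their median was -0.05, and the scaffold gene STE5 was the only one past 1.5-fold at -0.63, where 4.61% of all genes were, and after centring none was. Among the transcription factors below the MAP kinases, RLM1, for the factor that Slt2 activates, was past 1.5-fold in the deletion comparison at 0.79, and the median was 0.14 over 11 genes. No other factor was, where 5.92% of all genes were, but after subtraction of the running median 2 were. With alpha factor the stress factor gene MSN2 was the only one, at -0.60, where 4.61% of all genes were, and the median was -0.00 over 9 genes. After centring or the running median no factor was at least 1.5-fold lower. Pheromone response genes had medians of 0.43 and 0.58, each over 27 measured genes, with 12 and 13 at least 1.5-fold higher, beside 2.84% and 1.46% of all genes, and 2 and 1 at least 1.5-fold lower, beside 3.08% and 3.15%. Those past 2-fold in both were FIG1, FIG2, AGA1, AGA2, ASG7, MFA1, PRM3 and PRM6, led by FIG1, a mating gene of calcium uptake, at 3.33 and 2.38. In the deletion comparison PRM1 was also past 2-fold at 1.82, KAR3 at -1.37 and PRM10 at -1.16. With alpha factor PRM1 was at 0.17 and PRM10 at 0.65, and KAR3 had no value.

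Phosphatase genes outside the set gave a view of the same enzyme families. Of 25 genes listed in 3 families, 24 were measured in the deletion comparison, with values from -0.67 to 0.33 and a median of -0.02. None of them was at least 1.5-fold higher, where 2.84% of all genes were. OCA4, of the tyrosine phosphatase superfamily, was the only one at least 1.5-fold lower, at -0.67, where 3.08% of all genes were, and PPH3, of the PPP family, was at -0.40. With alpha factor 23 were measured, between -0.56 and 0.31 with a median of -0.08, and none passed 1.5-fold, where 4.61% of all genes did. These counts are near the shares of all genes. CNA1, a gene for a catalytic subunit of calcineurin, was the lowest at -0.56 and the only one below PTC2, and MIH1, for a mitotic tyrosine phosphatase, was at -0.39.

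The PP2C genes outside the set resembled those inside it in range. In the deletion comparison PTC4 was at 0.15, PTC5 at -0.03, PTC6 at 0.04 and PTC7 at -0.17. With alpha factor PTC4 was at 0.14, PTC5 at -0.32, PTC6 at -0.23 and PTC7 at -0.21. PTC2 lay below all 4 in both comparisons, although a turned sign would put it above them with alpha factor. In the plot of values by gene group, the 9 members other than MSG5 cover a narrower range than the cell wall integrity output genes.

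**Figure D3:**
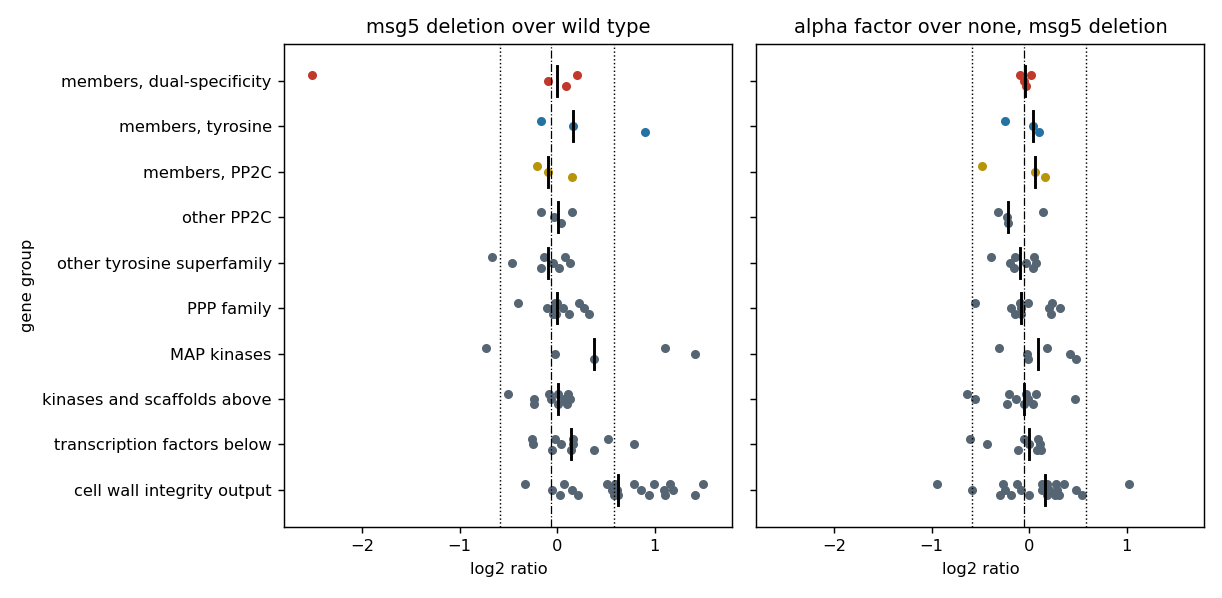
Log2 ratios (x axes) of single genes, grouped by enzyme class or by place in the MAP kinase pathways (y axis), for the msg5 deletion over wild type (left) and alpha factor over none in the deletion (right). Each point is 1 gene with 1 condensed value, black bars are group medians, the dash-dotted line is the median of all genes and dotted lines mark 1.5-fold. In the left panel the cell wall integrity output genes have a median of 0.62, and PTP2 at 0.90 is the only phosphatase gene beyond 1.5-fold on the high side.

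The genes beside the members on the chromosomes were read for comparison. Of the 20 nearest annotated genes, 1 on each side of each member, 16 had a value in the deletion comparison, between -0.24 and 0.28, and none passed 1.5-fold, a count near the 5.92% of all genes that did. The neighbours of PTP2 were RET1, for a subunit of RNA polymerase III, at -0.04, and NPT1, of NAD synthesis, at 0.00. The neighbours of MSG5 were VAC7, of vacuole shape, at -0.19 and COX5A, of cytochrome c oxidase, at -0.08.

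With alpha factor 15 neighbours had values, between -0.29 and 0.17, and none passed 1.5-fold, where 4.61% of all genes did. The lowest was DOT6, a repressor of ribosome biogenesis genes, which lies beside PTC2, at -0.29. On the other side of PTC2, TRP2, of tryptophan synthesis, was at -0.10. The genes beside SDP1, POR2 and HOS4, were at 0.17 and -0.07, and those beside PTP1, BRE4 and SSB1, at 0.14 and 0.15. Neither neighbour of PTP3, YOS1 or a transfer RNA gene, and neither neighbour of YVH1, MND2 or DAL1, had a value in either comparison. The remaining neighbours are shown in the plot of members with their neighbours.

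**Figure D4:**
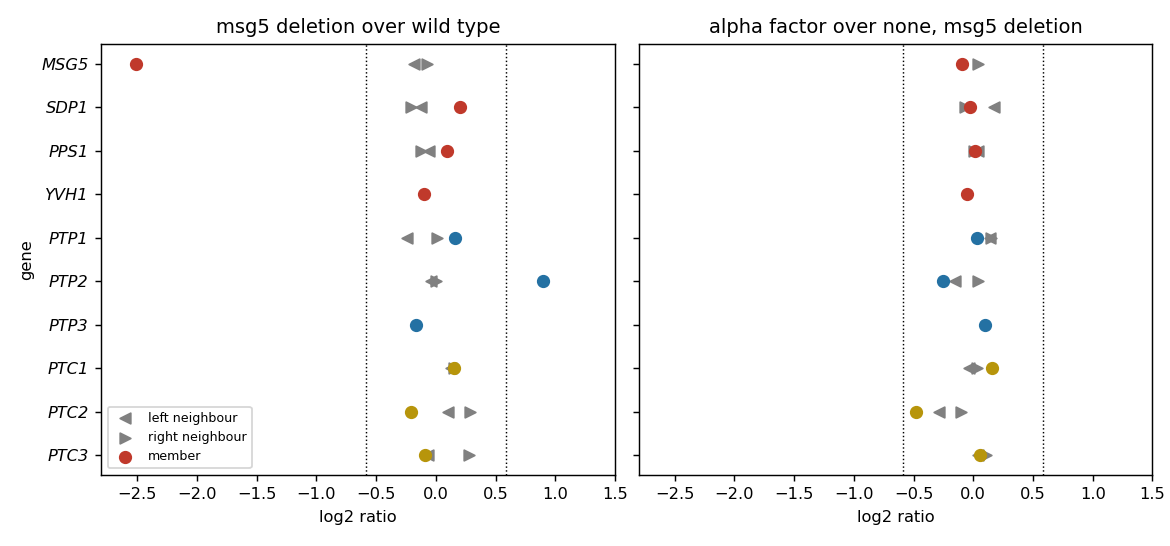
Log2 ratios (x axes) of each phosphatase gene (coloured circles, 1 row per gene, coloured by enzyme class) and of the nearest annotated gene on its left and right (grey triangles) for the msg5 deletion over wild type (left) and alpha factor over none in the deletion (right). Dotted lines mark 1.5-fold, and neighbours without a value are not drawn. All drawn neighbours lie between -0.29 and 0.28, while MSG5 at -2.51 and PTP2 at 0.90 stand away from theirs on the left.

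Likeness between genes was measured as the Euclidean distance over both log2 ratios, among 4378 genes with both values. With only 2 values per gene it is a weak measure. Among the 3 genes nearest to PTP2 were YMR046C, at 0.88 and -0.13 and a distance of 0.12, and TPO2, a polyamine transporter gene, at 0.83 and -0.14. For MSG5 the deletion sets the first value and the second measures no transcript, so its distances show no likeness in expression. No gene lay within 0.1 of MSG5, and the nearest, TKL2, a transketolase gene at -1.84 and 0.04, was 0.69 away. It was followed by FIT3, an iron-related cell wall gene at -1.38 and -0.50, and RCL1, of ribosomal RNA processing, at -1.31 and -0.29. Of the other members, PTC2 had 64 genes within 0.1, PTC1 155 and YVH1 454, so that these members had values shared by many genes on the array.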

How the data were processed

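Images of the two-colour arrays were analysed in GenePix Pro 5.0, per the labels. The authors deposited 1 log ratio per feature and comparison, condensed from 4 arrays. How they were normalized, what was filtered and which genome build was used is not given in the sources used here. The deposited values are taken as log2. For the deletion, raising 2 to each value gave a ratio on a 0.001 grid for 100% of 5310 values (tolerance 5.5e-05 in the log), where even spacing gives 7.52%. With alpha factor it was 7.97%, so that base 2 is an assumption there. Features were matched to names of the R64 assembly, 5654 by locus tag and 57 by an older name, and 496 had no match. Features of a gene were averaged in Python 3.11.15 with pandas 2.3.3. Genes were called past 1.5-fold or 2-fold, without a test, because there is 1 value per comparison. The calculations were tested on simulated data. Named genes were the members, their nearest neighbours, the 3 nearest genes in value, all genes of the MAP kinase and remaining PP2C lists, and list genes past 2-fold or farthest from 0. NBP2 was named for its link to PTC1 and YPS1 for a count of 1, after their values were seen. The members and lists were chosen with earlier results of these data known. Alternatives covered centring, position in the table, 1 feature per gene, the sign and the log base of the alpha factor values. Promoter and protein sequences were not analysed here. A gene that the rule on nearest values names is not reported here.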

Additional observations from a re-analysis of the deposited data

How the results depend on the processing

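Log2 ratios of the members kept their side of 1.5-fold under centring on the median of all genes, subtraction of a running median by position in the table (100 features on either side) and 1 feature per gene. They also kept their sign, except SDP1 with alpha factor, at -0.03, which was 0.02 after centring and 0.01 after the running median. The difference of PTC1 between the comparisons, at -0.01, also turned, to 0.01 and 0.02. MSG5 ranged from -2.51 to -2.45 in the deletion comparison and PTP2 from 0.90 to 1.00, the latter (0.9985) just short of 2-fold after the adjustment by position. Leaving out each member in turn, the median of the 9 genes other than MSG5 ranged from 0.00 to 0.12 in the deletion comparison and from -0.01 to 0.03 with alpha factor, where the mean was -0.05. The log base of the alpha factor values decides the calls there. Read as natural logarithms, 1 of the 9 genes would pass 1.5-fold (PTC2 at -0.69). Read as base 10, 2 would pass it (PTC2 at -1.59 and PTP2 at -0.83) and 1 would pass 2-fold. At base 10 the lower quartile of all genes, -0.21 as deposited, would itself pass 1.5-fold. Passing it would then be common among all genes, and these counts do not set the members apart. Of all other results for single genes, pairs and lists, 572 stayed within the spread between features, or within 1.5 times for counts, and 94 did not. No paired analysis was possible because each comparison has 1 condensed value. Signal over background was not used here, so the lowest measurable MSG5 level is unknown.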
